A study of Homo sapiens with 24 samples.

Results

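The transcripts described here belong to 7 human genes that encode large chromatin regulators: the histone methyltransferases KMT2A, KMT2C, KMT2D and SETD2, the histone demethylase KDM6A, the histone acetyltransferase EP300 and the DNA demethylation enzyme TET3. They were chosen by name, with their peak numbers in these data already known, so all values of these genes are given as a description and without a test. Peaks of N6-methyladenosine (m6A) were listed for 9560 named genes in all, and these 7 carried 154 of the 52777 peaks (0.292%). In cells with METTL3 knocked out they held 24 of 9471 peaks with UV (KO plus UV) and 42 of 13852 without it (KO minus UV). In wild type cells they held 41 of 15465 peaks with UV (WT plus UV) and 47 of 13989 without it (WT minus UV). The name under which they were grouped, heavily marked transcripts, fitted KMT2D, EP300 and TET3 in every list. KMT2A fitted it in the lists without UV, whereas KMT2C had 1 peak in the whole study.

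m6A is a methyl group placed on adenosines inside messenger RNA, mainly by a nuclear complex whose catalytic subunit is METTL3, and read by proteins that change the splicing, translation or decay of the message. In mammalian messages it gathers in long exons and around the stop codon, so transcripts with very long coding exons offer many places for it. The KMT2 enzymes methylate histone H3 on lysine 4 at promoters and enhancers, KDM6A sits in the same complexes as KMT2C and KMT2D and removes methyl groups from lysine 27, EP300 acetylates that residue, SETD2 trimethylates lysine 36 behind elongating RNA polymerase II, and TET3 oxidises 5-methylcytosine in DNA.

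U2OS, a cell line from a human osteosarcoma, was used with METTL3 knocked out (KO) or as wild type (WT). The labels give 1 protocol for all groups, in which the cells had 10 µM BrdU for 24 to 48 h beforehand. Plus UV cells received UVC at 50 J, for which no area is stated, and were lysed 2 min later. Polyadenylated RNA was precipitated with an m6A antibody (IP) and sequenced beside its input, with 2 IP libraries for KO plus UV, 3 for KO minus UV, 4 for WT plus UV and 3 for WT minus UV. The number of clones behind the knockout line is not stated in the labels. The files hold 1 peak list per condition and none per replicate, with positions along a RefSeq transcript and neither a score nor a read count. The depth behind a peak is therefore unknown, differences between lists carry no replicate error, and a transcript without a peak may be poorly expressed as well as unmethylated. The lists with fewer IP libraries were shorter, and the part of library number in the results was not tested. The METTL3 transcript itself carried 2, 1, 2 and 2 peaks in the lists in the order above, which checks neither the transcript level nor the protein. Of 8 osteoblast lineage markers 3 carried a peak in some list (RUNX2, COL1A1 and SPARC), as did 0 of 4 blood cell markers and 2 of 4 epithelial ones, and a peak list gives no level for any of them.

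**Figure D1:**
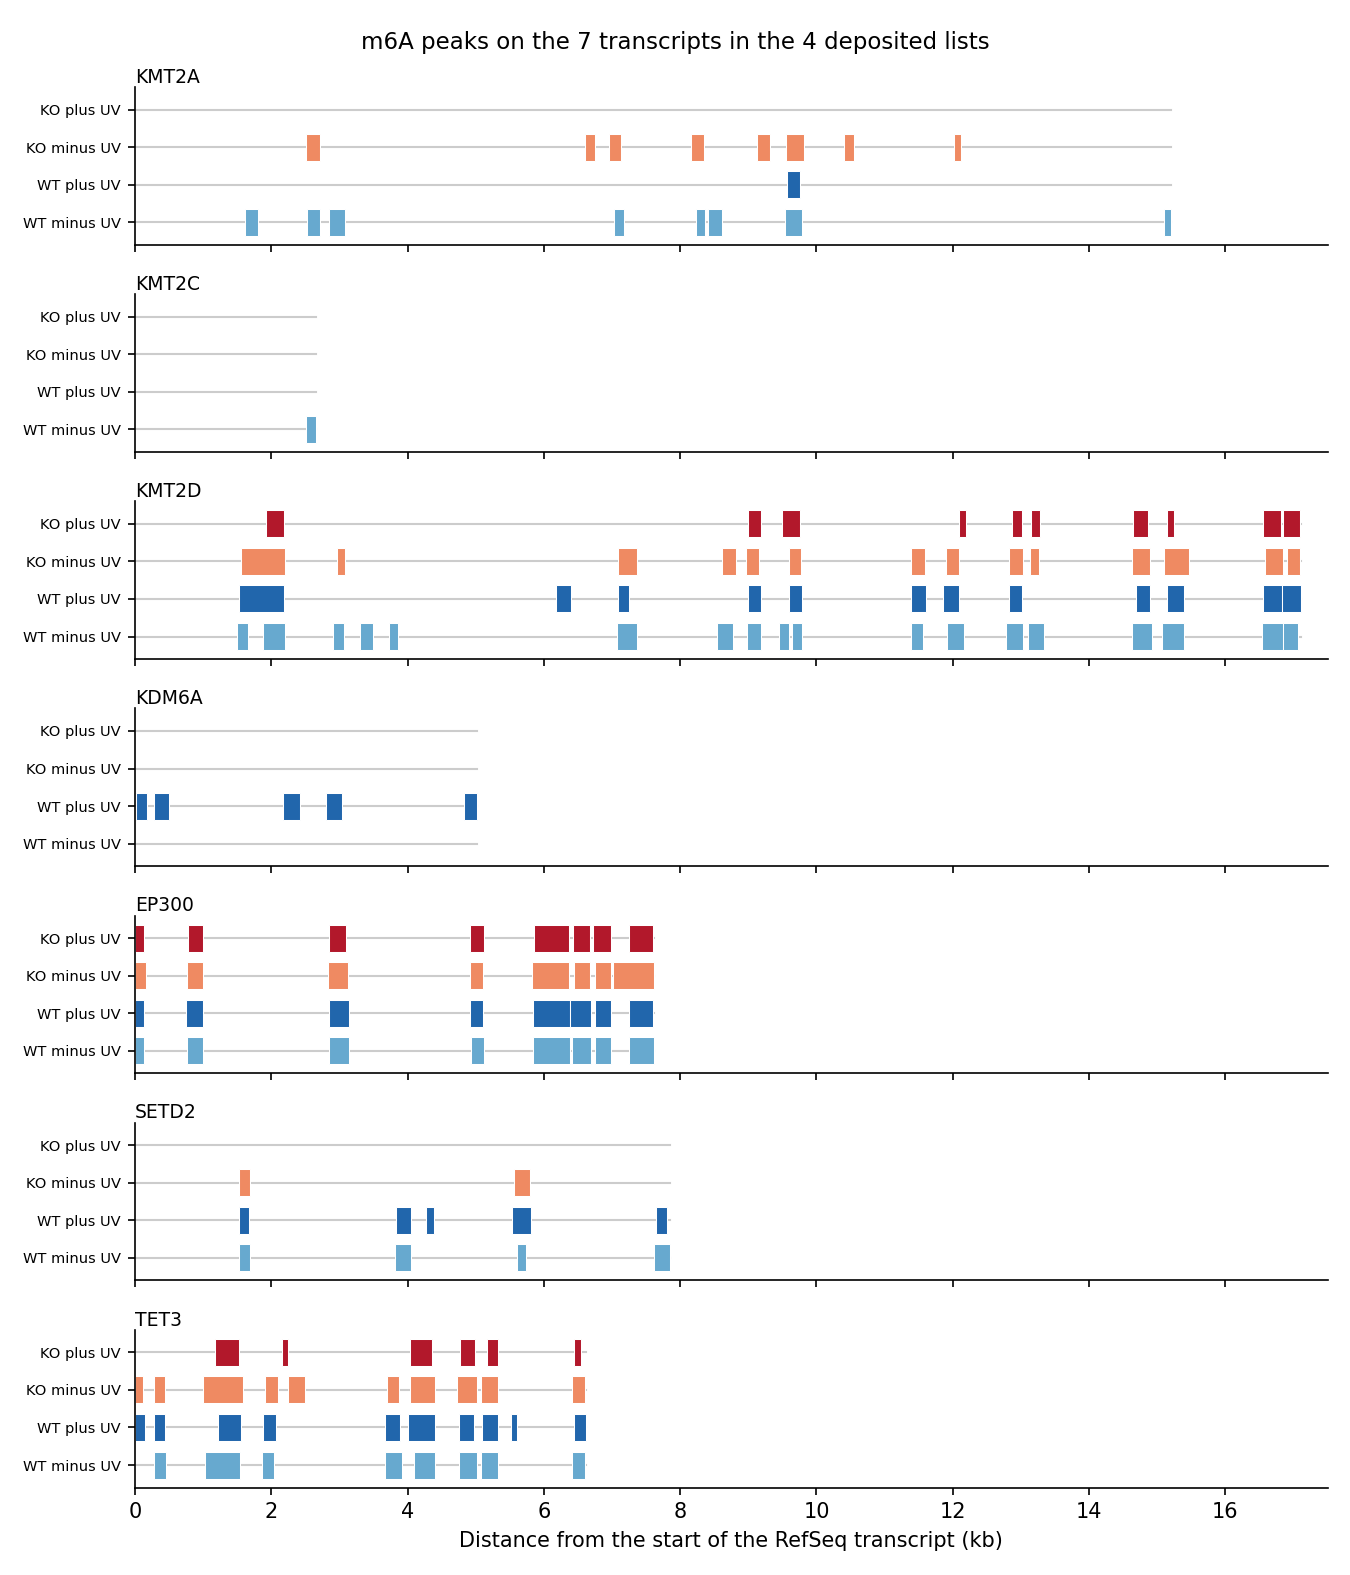
Map of every listed peak on the 7 transcripts, drawn to scale as distance in kb from the start of the RefSeq transcript, with 1 row per list (KO plus UV, KO minus UV, WT plus UV and WT minus UV from top to bottom). The grey line stops where the last listed peak stops, so the transcript may be longer. EP300 shows the same 8 blocks in each row, KMT2A is nearly empty in both rows with UV, and KDM6A has blocks in WT plus UV alone.

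KMT2D, which encodes the main H3 lysine 4 monomethyltransferase of enhancers (gene on chromosome 12, 49018978 to 49060794 in GRCh38), carried more peaks than any other transcript in each list. It had 10 peaks in KO plus UV, 14 in KO minus UV, 12 in WT plus UV and 18 in WT minus UV. The raw number was thus lower with UV than without it in both genotypes, and lower in KO than in WT cells under both conditions. It is not scaled to the length of the lists, which held 9471, 13852, 15465 and 13989 peaks in the same order, so these directions may not hold per listed peak. The KMT2D peaks covered 1937, 3469, 3021 and 4070 bases in that order, and their median widths of 212, 207, 215 and 222.5 bases were alike. The furthest peak ended at base 17108 of the transcript. Peaks whose centre lay after base 8000 numbered 9, 11, 9 and 12, and those before it 1, 3, 3 and 6, so the lists differed most over the 5′ part. There, WT minus UV alone had peaks at bases 3301 to 3490 and 3724 to 3860, and WT plus UV alone had one at 6171 to 6390. A peak near base 3000 was listed in both lists without UV (2961 to 3080 in KO, 2901 to 3070 in WT) and in neither list with UV, and the same held for a peak between bases 8541 and 8821.

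Merging overlapping peaks of the 4 lists gave 16 regions on KMT2D, of which 8 held a peak in every list. The last of these, bases 16541 to 17108, held 2 neighbouring peaks in each list. Near the 5′ end, at bases 1491 to 2201, a block of 651 bases in WT plus UV (1531 to 2181) and of 643 bases in KO minus UV (1559 to 2201) was the widest among all peaks of the 7 genes in those lists. The same block was split in WT minus UV into peaks at 1491 to 1660 and 1871 to 2200, and in KO plus UV it held a peak at 1921 to 2190. The peak number of a list thus depends on whether neighbouring stretches are listed joined or apart.

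KMT2A, known as MLL, maintains HOX gene expression and is rearranged in leukaemia (gene on chromosome 11, 118436492 to 118526832). Its transcript carried 0 KO plus UV peaks against 8 KO minus UV peaks, and 1 WT plus UV peak against 8 WT minus UV peaks. Both lists without UV ranked it among the most peak-rich transcripts, with 38 transcripts at 8 peaks or more in KO minus UV and 23 in WT minus UV. The WT plus UV peak lay at bases 9561 to 9760 and overlapped the peaks at 9556 to 9812 in KO minus UV and 9542 to 9792 in WT minus UV. Theirs was the only one of 12 KMT2A regions to hold a peak in 3 lists.

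Between the genotypes without UV, the KMT2A peaks were equal in number but lay partly at different positions. Of the 8 KO minus UV peaks 4 overlapped a WT minus UV peak, in the regions starting at bases 2507, 6951, 8161 and 9542. KO minus UV alone had peaks at 6601 to 6750, 9121 to 9320, 10411 to 10550 and 12021 to 12121. WT minus UV alone had peaks at 1611 to 1809, 2841 to 3080, 8411 to 8610 and 15101 to 15200. The peaks at 12021 and 15101 spanned 101 and 100 bases, about the narrowest width in the lists, 100 bases.

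Some other transcripts with many peaks in both lists without UV also had nearly none in both lists with UV. The cut-offs of 8 and 1 were taken from the KMT2A numbers, so KMT2A is counted by construction and the shares are a description. Of 16 transcripts with at least 8 peaks in both lists without UV, 3 (18.75%) had at most 1 peak in each list with UV, namely CELSR3, KMT2A and SLC5A3. With at least 5 peaks as the base, 13 of 194 transcripts (6.70%) did so. In the opposite direction, 0 of 56 transcripts with at least 5 peaks in both lists with UV had at most 1 in each list without UV. With at least 3 peaks as the base, it was 46 of 1063 transcripts (4.33%) in the first direction and 7 of 651 (1.08%) in the opposite one. In WT cells alone, 3 of the 23 transcripts with at least 8 peaks without UV had at most 1 with UV, and the median of the 23 was 8 peaks with UV. In KO cells this was 16 of 38, with a median of 3. The WT plus UV list rested on 4 IP libraries, the most of any, and the KO plus UV list on 2, the fewest.

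KMT2C, the closest relative of KMT2D (gene on chromosome 7, 152134925 to 152436003), carried a peak in WT minus UV alone, at bases 2511 to 2649, with 139 bases in width. The other 3 lists had 0 peaks on it. This pattern was common: 315 other genes, genes with LOC or LINC symbols left out, had exactly 1 peak in WT minus UV and none elsewhere. A length cannot be bounded usefully for KMT2C, because its only peak ends at base 2649.

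KDM6A, the lysine 27 demethylase that partners KMT2C and KMT2D (gene on chromosome X, 44873188 to 45112779), had 5 peaks in WT plus UV and 0 in KO plus UV, KO minus UV and WT minus UV. They lay at bases 7 to 180, 271 to 500, 2178 to 2423, 2803 to 3040 and 4821 to 5012. Their widths ran from 174 to 246 bases, so none was at the minimum width, and together they covered 1080 bases. Of the 666 genes with peaks in WT plus UV alone, the median had 1 peak and 5 genes, KDM6A among them, had 5, the most of any. Whether the KDM6A message was present at a similar level in the other conditions cannot be read from a peak list.

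**Figure D2:**
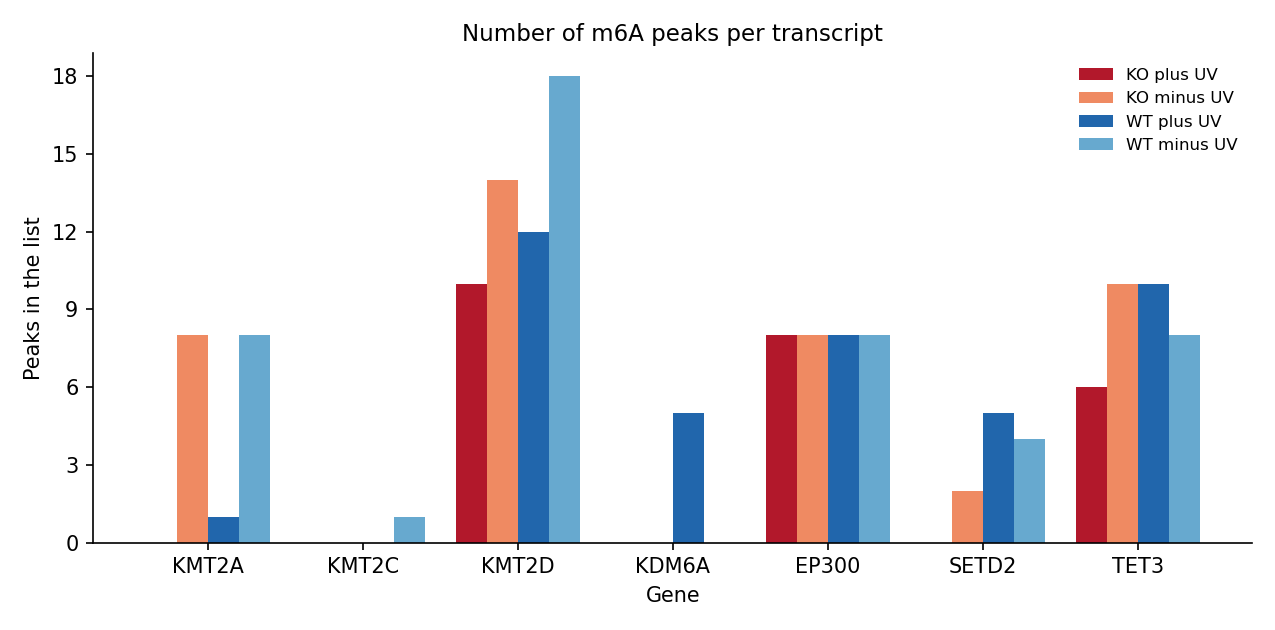
Bars give the number of peaks (y axis, from 0) on each of the 7 transcripts (x axis) in KO plus UV, KO minus UV, WT plus UV and WT minus UV. EP300 stands at 8 in every list, KMT2D ranges between 10 and 18, and KMT2A has 8 in both lists without UV against 0 and 1 with UV.

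EP300, the p300 acetyltransferase that co-activates many transcription factors (gene on chromosome 22, 41092592 to 41180077), had the same number of peaks in every list, unlike the other 6 members. It carried 8 peaks in KO plus UV, 8 in KO minus UV, 8 in WT plus UV and 8 in WT minus UV, and all 8 of its regions held 1 peak in each list. In WT plus UV the peaks at 5833 to 6385 and 6386 to 6689 touch without a gap, so the equal number depends on counting them apart. Over all transcripts, 25.7% of the 20811 merged regions had a peak in every list, and 21 of the 59 regions on the 7 genes did (35.6%). Peaks covered 2206, 2478, 2304 and 2270 bases of EP300 in the same order of lists. The furthest of them ended at base 7614.

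The positions on EP300 matched closely between lists. The peak at the transcript start ran from base 1 to base 137 in KO plus UV, 161 in KO minus UV, 133 in WT plus UV and 137 in WT minus UV. The peak of the fourth region ran from 4914 to 5114, 4915 to 5100, 4915 to 5112 and 4925 to 5116 in the same order. Over the 8 regions, the starts spread over a median of 29.5 bases between the lists and the ends over 16 bases. For 4483 regions of all transcripts with 1 peak in each list the medians were 26 and 21 bases. EP300 was thus near the usual spread, while 5 such regions on KMT2D had medians of 79 and 55 bases and 5 on TET3 had 83 and 50.

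The last listed peaks of EP300 lay close together. The stretch described here was bounded by its own peaks, so a high coverage is built in, and no other stretch was measured. The last 4 regions lay between bases 5825 and 7614, and their peaks covered 77.8% of those 1790 bases in KO plus UV, 89.4% in KO minus UV, 80.1% in WT plus UV and 78.4% in WT minus UV. The higher share in KO minus UV came with a wider last peak, at 7021 to 7614, which began at 7244 in KO plus UV, 7252 in WT plus UV and 7246 in WT minus UV.

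**Figure D3:**
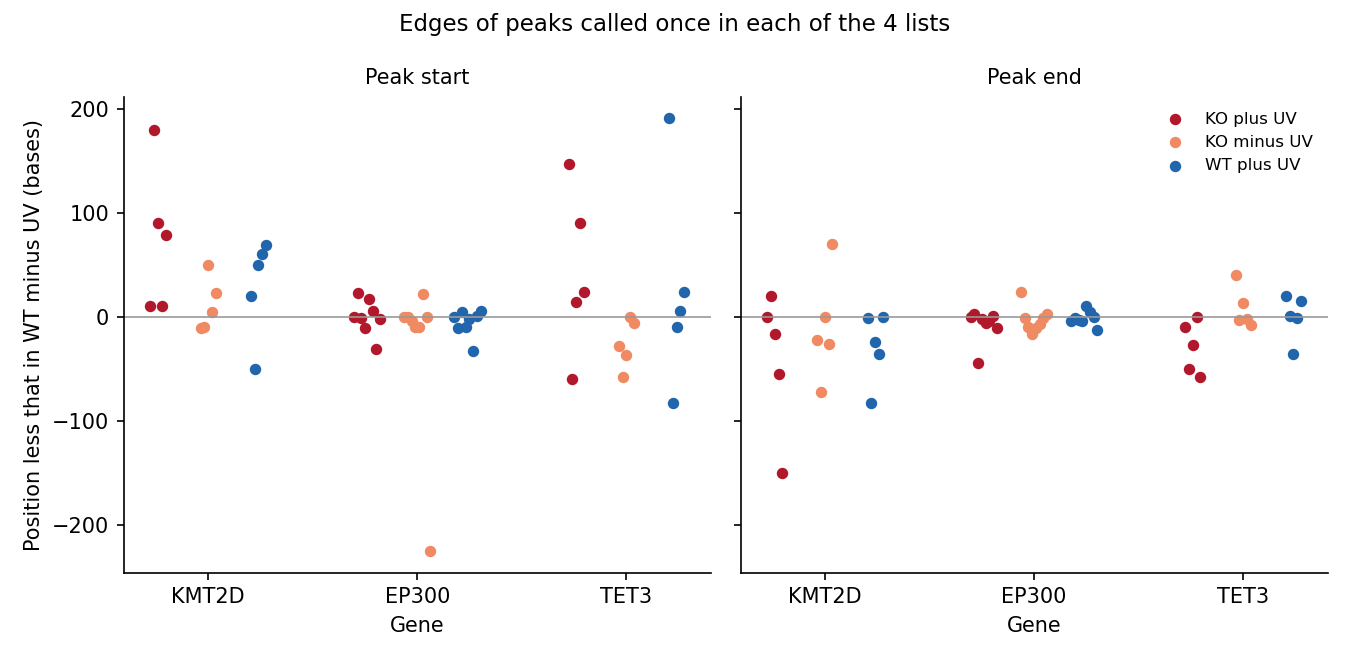
Each point is a region with 1 peak in every list, and shows by how many bases (y axis) the peak start (left) or end (right) in KO plus UV, KO minus UV or WT plus UV lay from that in WT minus UV, for KMT2D (5 regions), EP300 (8) and TET3 (5). The points of EP300 lie near 0 except for 1 start at -225 bases in KO minus UV, and those of KMT2D and TET3 are more scattered.

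SETD2, the only human enzyme known to trimethylate lysine 36 of histone H3 broadly (gene on chromosome 3, 47016436 to 47164840), had 0 peaks in KO plus UV, 2 in KO minus UV, 5 in WT plus UV and 4 in WT minus UV. The KO minus UV peaks, at bases 1520 to 1684 and 5561 to 5800, had counterparts in both WT lists, whose starts there were 1521 and 5531 with UV and 1520 and 5611 without UV. Peaks near bases 3831 and 7651 were listed in both WT lists and in neither KO list. WT plus UV alone added a narrow peak at 4277 to 4380. All 4 WT minus UV peaks overlapped a WT plus UV peak.

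TET3, the oxidase of 5-methylcytosine (gene on chromosome 2, 73983631 to 74135498), carried 6 peaks in KO plus UV, 10 in KO minus UV, 10 in WT plus UV and 8 in WT minus UV. The raw number, not scaled to list length, was lower with UV in KO cells and higher with UV in WT cells. Its peaks filled a large part of the span up to base 6623, with 19.0%, 39.1%, 33.5% and 32.0% of those bases covered in the same order, the highest share in KO minus UV and the lowest in KO plus UV. Of 12 regions 5 held a peak in every list, the last at bases 6410 to 6623. The regions at 275 to 453, 1861 to 2090 and 3661 to 3910 were present in the 3 lists other than KO plus UV. KO plus UV had a 100-base peak at 2151 to 2250 that overlapped no other, and the KO minus UV peak at 2251 to 2490 began at the next base.

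Peaks at the transcript start were listed for EP300 in all lists, for TET3 in KO minus UV (bases 1 to 120) and WT plus UV (1 to 150), and for KDM6A in WT plus UV. An m6A antibody also binds m6Am, the methylated form of an adenosine that is the first transcribed base, so the letters at the start bear on how such a peak is read. The first 25 bases from each start site in the RefSeq promoter table (GRCh38.p14) are shown for that reason, 5′ to 3′ on the gene's strand, with the m6A-type motif, GGAC and then any base but G, in capitals. The table gives 2 sites for TET3, both downstream of the gene's outermost base, as is the site of SETD2. Whether base 1 of the listed transcript is this base is not known.
EP300 (chr22:41092592-41092616, plus strand): gagaaggaggaGGACAgcgccgagg
TET3, start 1 (chr2:73984910-73984934, plus strand): gagtcccgcggacgccttcattgct
TET3, start 2 (chr2:74002692-74002716, plus strand): gcagccggcagctggccgccgcctc
KDM6A (chrX:44873188-44873212, plus strand): acaacaactttgtgctggtgccggg

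KDM6A begins with A at this start, and EP300 and both starts of TET3 begin with G. An A stands at the first base of 44.4% of 35116 RefSeq starts. Among the members without a start peak, SETD2 also begins with A, and KMT2A, KMT2C and KMT2D begin with G. In the first 50 transcribed bases, EP300 was the only member with the motif on the transcript strand, at bases 12 to 16, inside its start peak if the numbering is the same. Of all starts, 14.5% hold the motif in that window on the transcript strand and 14.03% on the other strand, where KMT2C and start 1 of TET3 have it. Peaks that began within 100 bases of the transcript start made up 1 of 24 member peaks in KO plus UV, 2 of 42 in KO minus UV, 3 of 41 in WT plus UV and 1 of 47 in WT minus UV. Over all transcripts with peaks reaching at least base 5000 they were 4.78%, 4.49%, 5.21% and 5.14%.

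The comparison of KO cells with and without UV asked how the peak lists of the METTL3 knockout line differ with UV. KO plus UV listed peaks on 3 members (KMT2D, EP300 and TET3) and KO minus UV on 5. None of the 3 lacked a KO minus UV peak, against 14.9% of all genes, most with fewer peaks. Of the 100 transcripts with at least 5 KO plus UV peaks, as these 3 had, 0 lacked one. KMT2A and SETD2 had a KO minus UV peak and no KO plus UV peak, 2 of 5 members, against 32.6% of all genes. Of the 24 KO plus UV peaks on the members, 1 (4.17%, 95% Wilson interval 0.739 to 20.2) overlapped no KO minus UV peak, against 22.6% of all KO plus UV peaks. Where both lists had a peak on the transcript, as for all 3 members, the share was 13.4% (1137 of 8469), within the members' interval. For the members it was 4 of 24 (16.7%) with an overlap of at least 50% of both peaks required. It was 9.07% when bases were counted in place of peaks and 7.14% without KMT2D. Among peaks of at least 150 bases it was 0 of 17. Under the overlap, base and width settings no share over all transcripts was computed, so 22.6% and 13.4% are not their background. In the other direction, 19 of 42 KO minus UV peaks (45.2%, 31.2 to 60.1) had no counterpart in KO plus UV, against 47.0% over all transcripts. Where both lists had a peak on the transcript, it was 9 of 32 (28.1%) for the members and 2445 of 9781 peaks for all. KMT2A gave 8 of the 19, TET3 5, KMT2D 4 and SETD2 2, while EP300 gave none. All intervals cover counting error alone, and peaks of the same transcript are not independent.

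In WT cells, the comparison asked whether m6A appears within minutes of UV damage. One member of 6 with a WT plus UV peak, KDM6A, had none in WT minus UV (20.8% of all genes), and 1 of 6, KMT2C, had a peak in WT minus UV and none in WT plus UV (11.5%). Among the 41 WT plus UV peaks, 9 (22.0%, 12.0 to 36.7) had no counterpart in WT minus UV, against 30.0% of all. Where both lists had a peak on the transcript, it was 4 of 36 (11.1%) for the members and 17.3% for all. Of the 9 among all 41 peaks, KDM6A gave 5, TET3 2, KMT2D 1 and SETD2 1. Among the 47 WT minus UV peaks, 14 (29.8%, 18.7 to 44.0) had none in WT plus UV, against 22.4% of all, and KMT2A gave 7 of them and KMT2D 6. Where both lists had a peak on the transcript, it was 13 of 46 (28.3%, 17.3 to 42.5) for the members and 1910 of 12766 peaks (15.0%) for all, below that interval. The interval treats peaks of the same transcript as independent, and the members were chosen with their peak numbers known. All 8 EP300 peaks were matched in both directions, as were all TET3 and SETD2 peaks of WT minus UV.

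KO and WT cells without UV, each with 3 IP libraries, were compared to ask which peaks differ between the genotypes. Their lists held 13852 and 13989 peaks in all, and whether METTL3 activity was lost in the KO cells was not tested. None of the 5 members with a KO minus UV peak lacked one in WT minus UV (20.1% of all genes, and 4 of the 366 transcripts that had 5 or more peaks in KO minus UV, as 4 of the members had), and 1 of 6, KMT2C, had a WT minus UV peak and none in KO minus UV (22.0%). Of the 42 KO minus UV peaks 6 (14.3%, 6.72 to 27.8) had no partner in WT minus UV, 4 on KMT2A and 2 on TET3, against 31.1% of all. Over all transcripts with a peak in both lists the share was 19.8%. The members' share was 21.6% when peaks under 150 bases were left out, and also when bases were counted. Under those settings no share over all transcripts was computed. Of the 47 WT minus UV peaks 10 (21.3%, 12.0 to 34.9) had no partner in KO minus UV, against 32.1% of all. Where both lists had a peak on the transcript, it was 9 of 46 (19.6%) for the members and 18.3% for all. Of the 10 among all 47 peaks, KMT2A gave 4, KMT2D 3, SETD2 2 and KMT2C 1. All 14 KMT2D and all 8 EP300 peaks of KO minus UV had a counterpart in WT minus UV.

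With UV, 0 of the 3 members with a KO plus UV peak lacked a WT plus UV peak (9.84% of all genes, and 0 of the 100 transcripts with at least 5 KO plus UV peaks). KMT2A, SETD2 and KDM6A, 3 of 6, had a WT plus UV peak and none in KO plus UV (37.6% of all genes). Of the 333 transcripts with at least 5 WT plus UV peaks, which include SETD2 and KDM6A, 93 (27.9%) had none in KO plus UV. Among the 24 KO plus UV peaks, 3 (12.5%, 4.34 to 31.0) lacked a counterpart in WT plus UV, 2 on KMT2D and 1 on TET3, against 19.3% of all and 13.5% where both lists had a peak on the transcript. The members' share was 20.8% with an overlap of at least 50% of both peaks, 7.14% without KMT2D, and 0 of 17 among peaks of at least 150 bases. For the overlap and width settings no share over all transcripts was computed. Of the 41 WT plus UV peaks 20 (48.8%, 34.3 to 63.5) had no partner in KO plus UV, against 51.0% of all, with 5 each from TET3, SETD2 and KDM6A, 4 from KMT2D and 1 from KMT2A. Where both lists had a peak on the transcript, it was 9 of 30 for the members and 25.5% for all. These lists rest on unequal numbers of IP libraries, 2 for KO and 4 for WT.

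**Figure D4:**
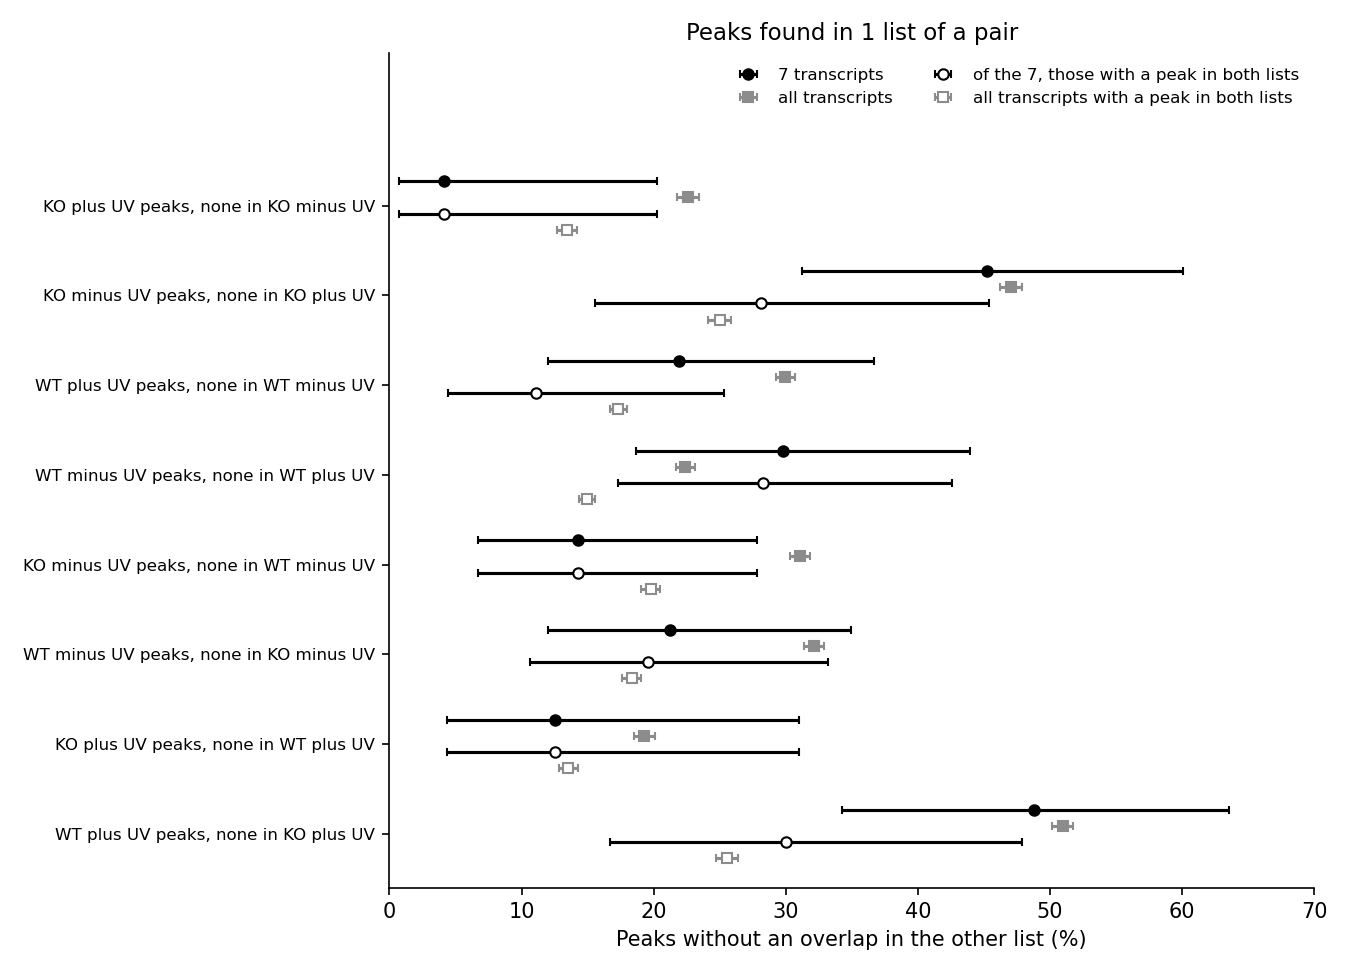
Points give the percentage of peaks of the first-named list that overlapped no peak of the other list (x axis), for the 7 transcripts (circles) and all transcripts (squares), filled for all of them and open for those with a peak in both lists, with 95% Wilson intervals for counting error. For KO plus UV peaks set against KO minus UV the 7 transcripts lie at 4.17%, all transcripts at 22.6% and those with a peak in both lists at 13.4%.

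Across lists, 21 of the 59 regions (35.6%, against 25.7% of all regions) were found in every list, 9 in 3 lists, 8 in 2 and 21 in 1. Of the 9, 8 were in all lists but KO plus UV (13.6%, against 12.4% of all regions). When the KO plus UV list was left aside, 29 of the 59 regions held a peak in each of the other 3, against 38.0% of all regions. These 29 were 10 on KMT2D, 8 on EP300, 8 on TET3, 2 on SETD2 and 1 on KMT2A. Both lists without UV, and neither with UV, shared 5 regions (8.47%), 3 on KMT2A and 2 on KMT2D, against 3.70% of all regions. Both lists with UV, and neither without, shared 0, against 1.98%. Both WT lists and no KO list shared 2 regions, on SETD2, against 7.90% of all, and both KO lists and no WT list shared 0, against 2.53%. Regions in a list of their own numbered 1 in KO plus UV (TET3), 5 in KO minus UV (4 on KMT2A), 8 in WT plus UV (5 on KDM6A) and 7 in WT minus UV (4 on KMT2A). Over all transcripts such regions were 3.57%, 8.68%, 10.8% and 8.53%.

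Peaks on these genes had a higher median width than peaks at large in each list. Their median width was 227 bases in KO plus UV, 206.5 in KO minus UV, 220 in WT plus UV and 230 in WT minus UV, against 176, 182, 189 and 186 over all transcripts. It was not so for each gene: SETD2 had a median of 150 in WT plus UV, and the only KMT2C peak, in WT minus UV, spanned 139. All other medians of a member in a list were higher than that of all peaks. KMT2A was close to it, with 188.5 in KO minus UV and 195.5 in WT minus UV. Peaks of at least 350 bases numbered 3, 6, 3 and 3 on the members, all on EP300, KMT2D and TET3. They were 12.5%, 14.3%, 7.32% and 6.38% of the member peaks, against 3.46%, 4.35%, 5.37% and 4.95% of all peaks. In KO plus UV, 3 of 24 member peaks (12.5%) had the minimum width of 100 bases, against 9.59% of all peaks of that list, and in the other lists at most 1 member peak did.

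The transcript lengths were not known here, and the furthest peak end, which itself tends to lie further where there are more peaks, was used as the span. It reached base 7000 on KMT2A, KMT2D, EP300 and SETD2 and not on KMT2C, KDM6A or TET3. Among the 293 transcripts that it put at base 7000 or beyond, the median peak number, where there was any, was 3 in KO plus UV, 5 in KO minus UV, 4 in WT plus UV and 4 in WT minus UV. Per kb of that span, EP300 carried 1.05 peaks in each list and TET3 0.906, 1.51, 1.51 and 1.21 in the same order. KMT2D carried 0.585, 0.818, 0.701 and 1.05, and KMT2A 0, 0.526, 0.0658 and 0.526. SETD2 carried 0, 0.255, 0.637 and 0.510, and KDM6A 0, 0, 0.998 and 0. Among transcripts reaching base 5000 or beyond, as TET3 and KDM6A do, the median of those with a peak was 0.359, 0.528, 0.499 and 0.498. The median of those of the 293 with a peak was 0.284, 0.494, 0.437 and 0.455. Of 268 such transcripts with a KO minus UV peak, 107 (39.9%) had none in KO plus UV, among them KMT2A and SETD2. Of 269 with a WT minus UV peak, 33 (12.3%) had none in WT plus UV.

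**Figure D5:**
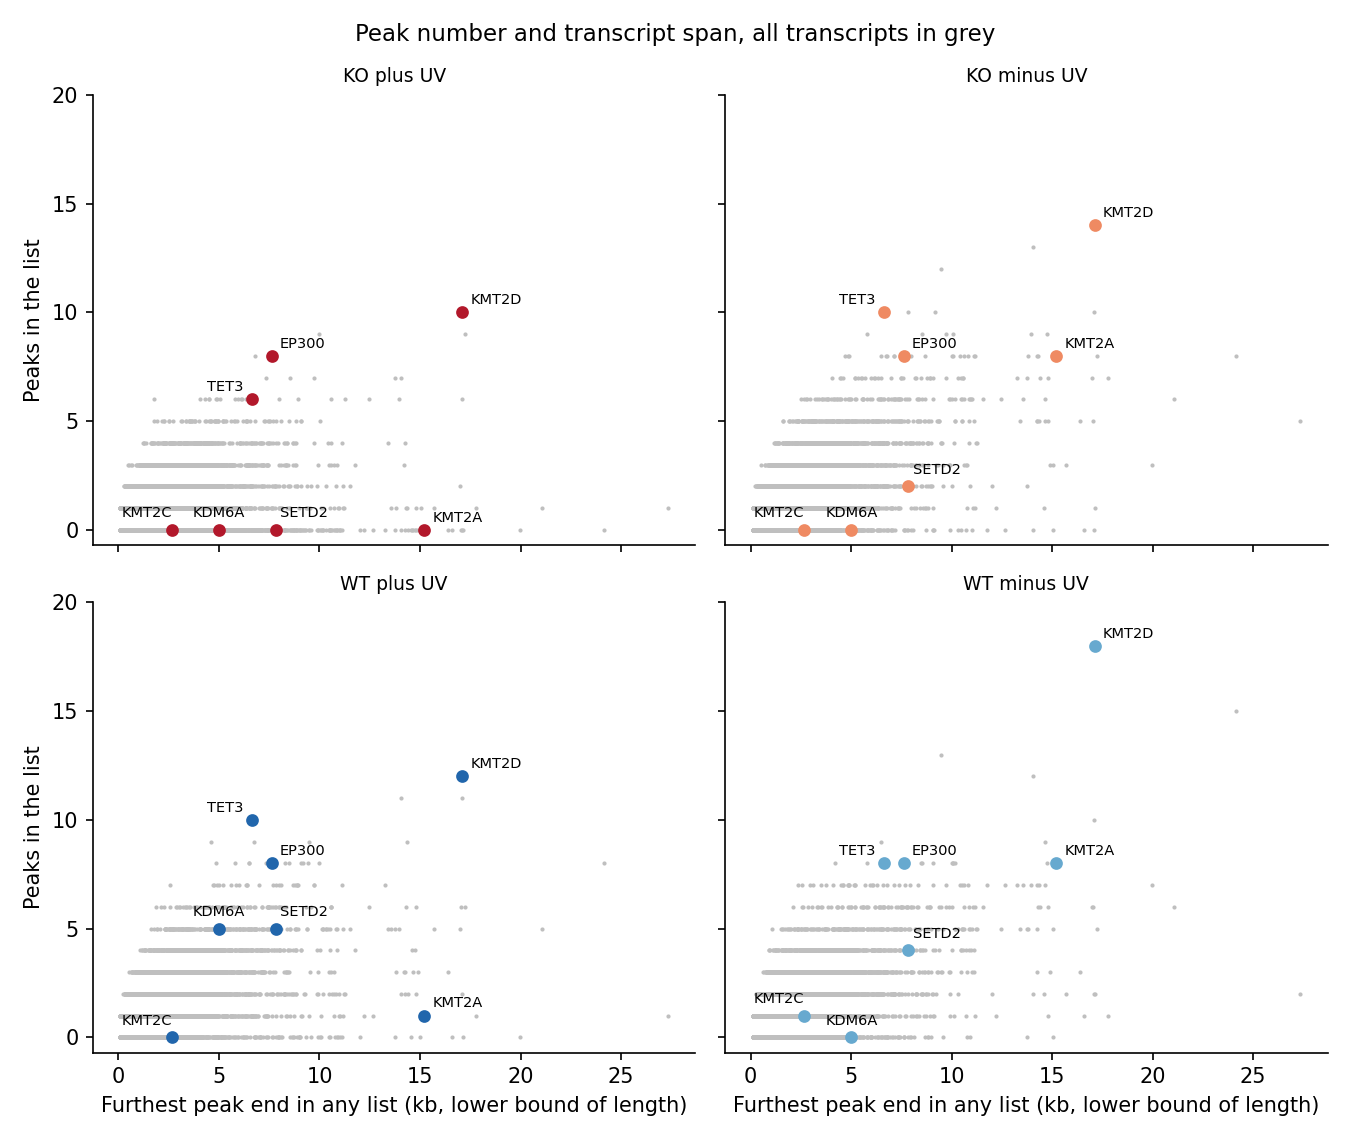
Each grey point is a transcript, placed by how far its last peak reached (x axis, kb, no more than its length) and its number of peaks in the named list (y axis), with the 7 members coloured and labelled. KMT2D is the highest point in every panel, TET3 and EP300 are high for their span, and KMT2A lies at 0 and 1 in the panels with UV against 8 in those without.

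The genes whose peak numbers were most like those of each member, by the sum of absolute differences over the 4 lists, differed between members. For EP300 it was NOTCH2, a Notch receptor, with 9, 8, 8 and 8 peaks in KO plus UV, KO minus UV, WT plus UV and WT minus UV (sum 1), then SRCAP, a chromatin remodeller, with 7 in each list (sum 4). For KMT2A they were SLC5A3, a myo-inositol transporter, with 0, 8, 0 and 8 (sum 1), and CELSR3, a cadherin, with 1, 9, 1 and 8 (sum 2). RNF213, a ubiquitin ligase, with 6, 10, 11 and 10, was nearest to TET3 (sum 3), followed by MED1, a Mediator subunit, with 6, 8, 7 and 7 (sum 6). No gene came close to KMT2D, the nearest being FAT1, a protocadherin, with 7, 13, 11 and 12 (sum 11) and RNF213 (sum 17). ZFYVE9 and PPP1R13B had the same 4 numbers as SETD2, and TNKS1BP1 and BAZ1A were among 4 genes with those of KDM6A. FBXO8 and TMEM50A, whose peaks covered as many bases, were 2 of the 315 with those of KMT2C. LOC and LINC genes were left out of these searches.

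Other genes of the same pathways carried a median of at most 3 peaks per list in each pathway list. Of 15 other KMT2 complex genes with a peak in any list, 12 had one in KO plus UV, 13 in KO minus UV, 13 in WT plus UV and 15 in WT minus UV. Of the 7 genes described here, 3, 5, 6 and 6 had one, and of all genes 57.7%, 72.9%, 83.4% and 74.6%. KMT2B, the nearest relative of KMT2A, carried 5, 4, 6 and 5 peaks in that order and did not share its pattern. WDR82, a subunit of the SETD1 complexes, carried 4, 3, 3 and 2, and SETD1A, a lysine 4 methyltransferase, 2, 3, 3 and 4. Among 10 acetyltransferase genes, 7, 8, 9 and 9 had a peak. CREBBP, the paralog of EP300, carried 1, 7, 6 and 6 peaks, NCOA3, a nuclear receptor coactivator, 1, 5, 7 and 5, and KAT6B, an acetyltransferase of histone H3, 0, 1, 7 and 6, so that all were sparse in KO plus UV where EP300 had 8.

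Of 10 genes of DNA methylation and its removal, 5 had a peak in KO plus UV, 6 in KO minus UV, 9 in WT plus UV and 10 in WT minus UV. OGT, the O-GlcNAc transferase that binds TET proteins, carried 3, 3, 4 and 3 peaks, the methyltransferase DNMT3A 1, 1, 4 and 2, and DNMT1 1, 1, 3 and 2, fewer than TET3 in every list. Among 9 genes of lysine 36 methylation, 5, 8, 8 and 7 had a peak. NSD1, which dimethylates that residue, carried 5, 7, 8 and 8, the methyltransferase ASH1L 0, 10, 8 and 4, and the demethylase KDM4A 3, 4, 4 and 2. Of 12 genes of lysine 27 methylation, 8, 10, 11 and 12 had a peak. ASXL2 and ASXL1 are partners of the deubiquitinase BAP1. ASXL2 carried 5, 5, 3 and 3 peaks and ASXL1 5, 4, 2 and 2, more in each KO list than in the WT list of the same condition. KDM6B, the relative of KDM6A, carried 2, 3, 3 and 3 and was thus listed in every condition.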

How the data were processed

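Sequencing reads were aligned with TopHat2 2.0.14 to hg38, per the submitters' processing notes. Neither the labels nor the files name the peak caller, a threshold, the treatment of replicates and inputs, or the transcript release. The deposited values are peak starts and ends in bases along a transcript, with no signal, count or score, taken as counted from 1 with both ends included. Accessions were matched to symbols through a RefSeq gene table (GRCh38.p14), without versions or copy numbers, for 9563 of 9674 transcripts (98.9%). A transcript of each member was listed. Peaks of 2 lists counted as shared with 1 base or more in common. Overlapping peaks of the 4 lists were merged into regions, and peaks that touched without a shared base were kept apart. Shares carry 95% Wilson intervals (scipy 1.17.1, Python 3.11.15). Peaks could not be assigned to exons or untranslated regions, since no transcript models were used here. Overlap counting was checked on simulated peaks. The members, gene lists and alternatives were chosen with earlier results of these data known. Named genes were the 7 members, for each member up to 2 others with the smallest sum of absolute differences in peak number over the 4 lists (ties by total peak length, LOC and LINC genes skipped), and up to 3 genes per pathway list with the most peaks. The base 8000 split, the EP300 stretch from base 5825 to 7614 and the counts of transcripts with at least 3, 5 or 8 peaks were chosen after the values were seen.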

Additional observations from a re-analysis of the deposited data

Results flagged for a closer look

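For TET3, the peak number differed with UV in opposite directions in the genotypes: by -4 in KO cells (6 with UV, 10 without) and by 2 in WT cells (10 with UV, 8 without), a difference of -6 between the genotypes. For SETD2 the number differed by -2 in KO cells (0 with UV, 2 without) and by 1 in WT cells (5 with UV, 4 without), a difference of -3. KDM6A, which was not flagged, had a larger difference of -5, with 0 in KO cells and 5 in WT cells. With 1 list per condition none of these differences was tested. The KO plus UV list came from 2 IP libraries and was the shortest, with 9471 peaks, and its part in these differences was not tested.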

How the results depend on the processing

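Of 49 values under other settings, 47 stayed within the counting interval of the reported share or within 1.5 times the reported count. The exceptions were shares of KO plus UV peaks among peaks of at least 150 bases: 0% overlapped no KO minus UV peak (4.17% reported) and 0% overlapped no WT plus UV peak (12.5% reported), with 17 of 24 peaks left at that width. This yardstick is loose, since the intervals are wide and rest on few peaks that are not independent. A share of 16.7%, with an overlap of at least 50% of both peaks, still counted as within the interval of the 4.17%. Shares of bases were held against intervals made for peaks. The settings were an overlap of at least 50% of both peaks, merging of peaks within 100 bases, a minimum width of 150 bases, bases in place of peaks, and leaving out KMT2D. Leaving the KO plus UV list out of the count of regions found in every list, added after the data were examined, gave 29 in place of 21. No paired analysis was possible because each deposited list stands for a whole condition, and for the same reason no replicate could be left out. Depth is unknown, so the lists cannot show whether a missing peak was unmethylated or too thinly covered.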

Other observations

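In the same pathway lists, a few genes chosen after their values were seen had uneven peak numbers. JARID2, a cofactor of the lysine 27 methyltransferase complex, carried 0 peaks in KO plus UV, 5 in KO minus UV, 5 in WT plus UV and 1 in WT minus UV. KDM2B, a demethylase that recruits Polycomb complexes to CpG islands, carried 0, 5, 1 and 0 in the same order, and CXXC4 carried 0, 0, 1 and 4.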
